A study of Mus musculus with 16 samples.

Results

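The paternally expressed imprinted genes of the Peg3 type were followed in 16 libraries of total RNA from mouse embryonic stem cells (ESCs). They are 10 named genes, all 10 of which had a row among the 26127 genes of the deposited table. Of these, 9 are expressed mainly from the paternal copy. The other member, Zim1, is the maternally expressed neighbour of Peg3. The reads were not assigned to parental alleles, so the parental origin of the RNA was not measured here. All 10 genes passed the filter on low values (above 1 RPM, reads scaled to 1 M reads of the library, in at least 4 libraries), as did 12892 genes in total. Usp29 passed it through the 4 Dnmt1 KO libraries alone, since 0 of 8 WT and 0 of 4 Dicer/Dnmt1 KO libraries exceeded 1 RPM. Counts are therefore given with and without Usp29.

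The libraries fell into 3 groups. The wildtype group (WT, labelled as controls for both Dicer and Dnmt1) has 8 libraries. A Dnmt1 knockout (Dnmt1 KO) is carried by 4 libraries, and the remaining 4 carry a Dicer and a Dnmt1 knockout together (Dicer/Dnmt1 KO). DNMT1 is the enzyme that copies DNA methylation onto the new strand after replication, and DICER cuts double-stranded RNA into small RNAs. The labels give the background strain of every library as E14, whereas the methods describe Dnmt1 loxP/loxP ESCs of strain C57BL/6, with Cre induced by tamoxifen and the Dicer alleles targeted by CRISPR/Cas9. The time between deletion and harvest is not given for these libraries. The methods describe culture in serum with LIF, with or without feeder cells. WT libraries are numbered 1 to 4 and knockout libraries 1 to 2, each number with a library A and a library B. Nothing in the labels says that these are separate cultures, so p-values may measure technical spread.

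Genomic imprinting keeps 1 parental copy of a gene silent. At the loci studied here the control region is a CpG-rich stretch, usually a promoter, that acquires DNA methylation in the oocyte and keeps it on the maternal copy through the demethylation of the early embryo. DNMT1 maintains this methylation, and the zinc finger protein ZFP57 binds the methylated motif TGCCGC and recruits the corepressor TRIM28. The unmethylated paternal copy is transcribed. The comparisons below ask how far RNA of these genes differed in cells labelled as Dnmt1 knockout, and in cells labelled as Dicer knockout as well.

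The genes lie at 6 loci. On NCBIM37, the build of the deposited coordinates, Zim1 (chr7:6628154-6649161) and Peg3 (chr7:6656603-6683132) are both on the minus strand, 7.4 kb apart. The Usp29 row covers a single exon of 2610 bp on the plus strand (chr7:6913871-6916480), 230.7 kb beyond Peg3. Sgce (chr6:4624350-4697204, minus strand) and Peg10 (chr6:4697306-4710514, plus strand) face away from each other across 101 bp. Mest lies on the same chromosome (chr6:30673547-30698457). Snrpn (chr7:67127388-67285105) and Ndn (chr7:69493163-69494814) share an imprinted domain. Plagl1 is on chromosome 10 (chr10:12810497-12851500) and Impact lies on another autosome. All 10 are annotated as protein-coding. Whether reads in introns were counted is not given in the sources used here.

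Promoter sequences of 7 of the 9 genes looked up were present in a RefSeq table on GRCm38.p6, a later build whose coordinates cannot be set beside those above. Peg10 and Sgce had no entry, and Impact was not looked up. The sequences are shown because CpG dinucleotides, in capitals, are the sites that DNMT1 methylates. Each runs 5′ to 3′ along its gene, from 250 bases before the annotated start to 30 bases after it. Peg3 (chr7:6730390-6730669, minus strand), Zim1 (chr7:6696403-6696682, minus strand), 1 of 3 annotated starts of Mest (chr6:30737803-30738082, plus strand), Plagl1 (chr10:13090582-13090861, plus strand) and the annotated start of Snrpn with most CpGs (chr7:60005170-60005449, minus strand) read as follows.
Peg3: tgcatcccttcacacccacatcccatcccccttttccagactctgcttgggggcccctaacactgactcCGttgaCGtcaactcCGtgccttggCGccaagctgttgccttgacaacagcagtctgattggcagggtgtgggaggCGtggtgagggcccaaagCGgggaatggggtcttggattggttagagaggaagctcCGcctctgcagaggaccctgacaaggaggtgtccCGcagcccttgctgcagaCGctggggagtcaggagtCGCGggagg
Zim1: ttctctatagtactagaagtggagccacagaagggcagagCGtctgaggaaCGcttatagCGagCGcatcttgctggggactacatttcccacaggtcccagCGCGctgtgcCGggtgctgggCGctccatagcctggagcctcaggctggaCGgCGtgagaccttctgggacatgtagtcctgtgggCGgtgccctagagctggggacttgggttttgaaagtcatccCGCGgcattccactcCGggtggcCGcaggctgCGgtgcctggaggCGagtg
Mest: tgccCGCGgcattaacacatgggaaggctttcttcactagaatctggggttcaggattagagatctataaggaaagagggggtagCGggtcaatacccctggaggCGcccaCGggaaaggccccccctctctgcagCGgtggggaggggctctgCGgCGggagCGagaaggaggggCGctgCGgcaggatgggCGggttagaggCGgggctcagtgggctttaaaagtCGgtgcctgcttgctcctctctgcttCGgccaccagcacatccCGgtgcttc
Plagl1: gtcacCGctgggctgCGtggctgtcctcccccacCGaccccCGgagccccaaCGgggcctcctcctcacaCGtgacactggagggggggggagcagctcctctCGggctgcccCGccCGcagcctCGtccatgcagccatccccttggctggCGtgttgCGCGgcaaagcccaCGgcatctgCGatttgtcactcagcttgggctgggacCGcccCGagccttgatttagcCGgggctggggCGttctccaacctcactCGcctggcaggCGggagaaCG
Snrpn: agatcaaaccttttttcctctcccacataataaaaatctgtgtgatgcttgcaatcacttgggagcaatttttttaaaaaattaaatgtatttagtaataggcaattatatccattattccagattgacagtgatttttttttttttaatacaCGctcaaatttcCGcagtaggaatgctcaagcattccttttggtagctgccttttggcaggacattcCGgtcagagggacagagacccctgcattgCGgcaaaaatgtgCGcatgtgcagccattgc

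In the full windows of 300 bases, the number of CpGs was 26 at Plagl1, 20 at Zim1, 17 at the Mest start shown, 13 at Peg3, 11 at Ndn and 7 at the Snrpn start shown. The median over 32817 windows of the same length was 7. Peg3 and Usp29 are transcribed away from a shared promoter. Their annotated starts lie 164 bp apart, and their windows share 263 bases. The TGCCGC motif, searched on both strands, was found in the windows of Plagl1, Zim1, the Mest start and the Snrpn start shown above, and not in those of Peg3, Usp29 and Ndn. It was absent too from a Mest start with 8 CpGs and from the Snrpn starts not shown, with 2, 3 and 4 CpGs. It was present in 11.6% of all windows. These matches describe letters in a window and no binding was measured.

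The targeted genes were measured first. Dnmt1 was between 5.55 and 7.66 log2 RPM in WT, between 4.17 and 4.63 in Dnmt1 KO and between 4.49 and 4.64 in Dicer/Dnmt1 KO. Dicer1 was between 4.56 and 5.68 in WT, 5.28 and 5.68 in Dnmt1 KO, and 3.68 and 4.06 in Dicer/Dnmt1 KO. Both genes were lower in the groups named for their loss. The libraries WT 4A and WT 4B had the least Dnmt1 RNA among WT, and members are given without them where a call changed. Library totals were 31.5 to 52.5 M reads.

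Levels per exon length were compared between genes as RPM per kilobase of exon (RPKM). In WT the median RPKM was 31.8 for Peg10, 24.4 for Snrpn, 15.2 for Peg3 and 12.6 for Impact, and each of these overlapped the next in range. Mest followed at 5.78, Ndn at 2.89, Sgce at 1.72 and Plagl1 at 0.599, with no overlap between neighbours in this order from Impact onwards. Usp29 (0.303) and Zim1 (0.292) were lowest and overlapped each other. In Dnmt1 KO the order was Peg10 (102), Peg3 (38.7), Impact (33.6), Snrpn (29.2), Mest (12.5), Ndn (4.28), Plagl1 (2.56), Sgce (1.84), Usp29 (0.580) and Zim1 (0.345). In Dicer/Dnmt1 KO, Plagl1 (5.69) stood beside Mest (7.84) and Ndn (5.31), and Usp29 (0.172) was last.

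**Figure D1:**
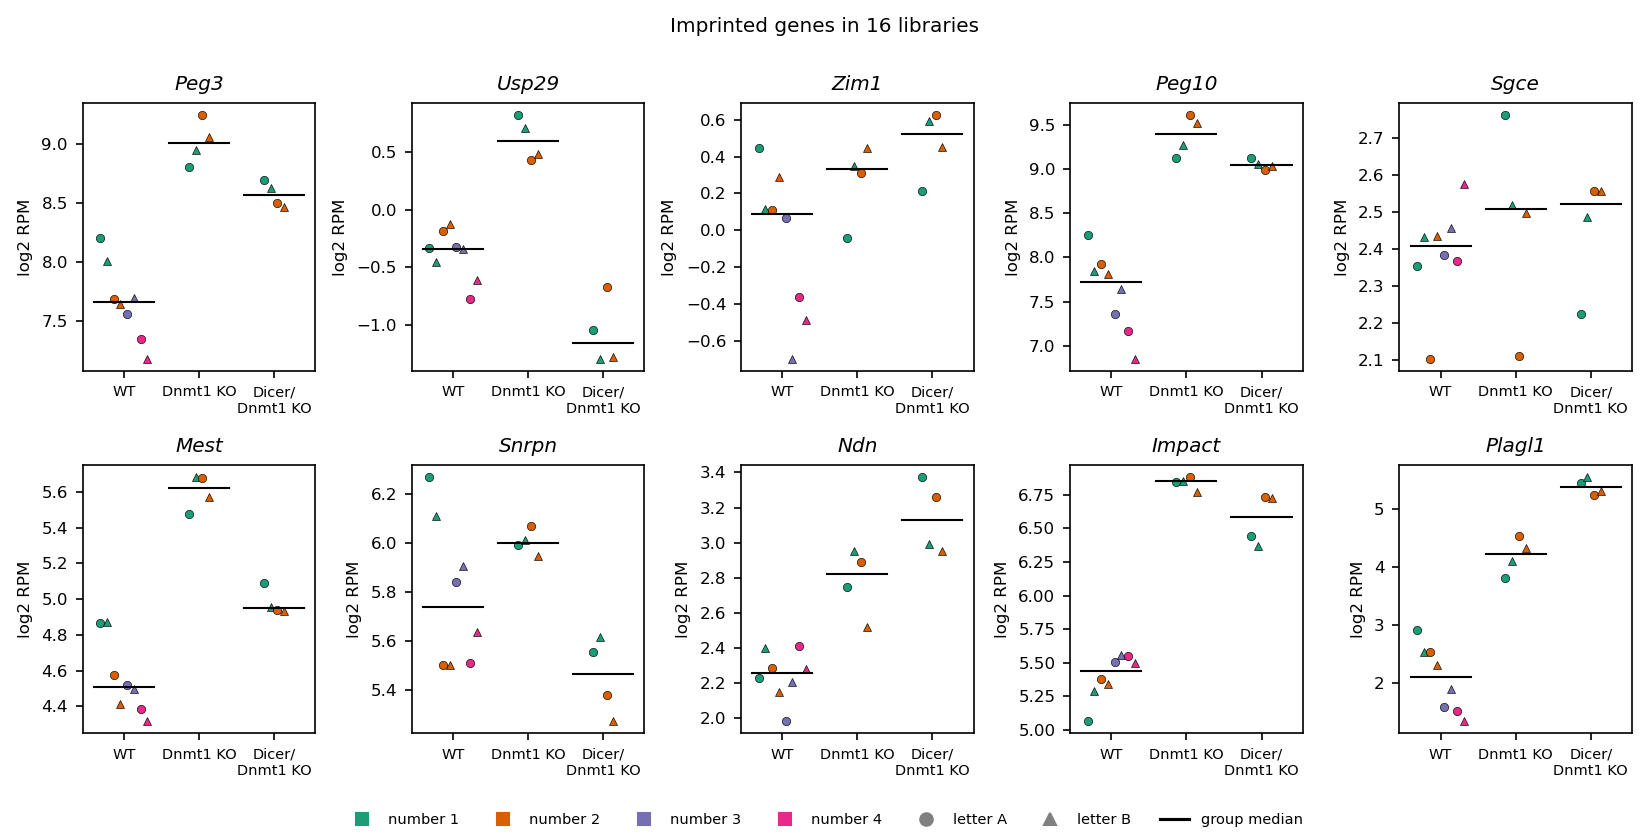
Level of each imprinted gene in each library, in log2 RPM, by group, with point colour for the replicate number, shape for the letter and a line at the group median. Peg3, Peg10, Mest, Ndn, Impact and Plagl1 lie above every WT library in both knockout groups, Usp29 does so in Dnmt1 KO alone, and Sgce, Snrpn and Zim1 overlap WT.

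The Dnmt1 knockout was accompanied by more RNA from most of the paternally expressed genes. In Dnmt1 KO against WT, 7 of the 10 genes were higher, 0 were lower and 3 were not called (limma, Benjamini-Hochberg (BH) adjusted p under 0.05 over all tested genes). At an unadjusted p under 0.05 in limma 0 were lower as well. Without Usp29 this was 6 of 9 higher. Among all tested genes 23.5% were higher and 17.5% were lower. The same 7 genes (6 without Usp29) had each Dnmt1 KO library above each WT library, which held for 14.8% of tested genes, and none of the 10 had each library below (8.43% of tested genes). The median log2 fold change was 1.03 over the 10 genes, 1.05 without Usp29 and 0.04 over all tested genes. With libraries A and B of each number averaged to 1 value, 7 genes, Usp29 among them, were again higher. With the correlation between A and B estimated by limma (0.67), 6 genes, Usp29 among them, were higher and the call of Ndn was lost (limma adjusted p = 0.0635).

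In Dicer/Dnmt1 KO 7 genes were higher and 2 lower than in WT, and without Usp29 these were 7 and 1 of 9. Among all tested genes 31.9% were higher and 30.1% were lower. The groups did not overlap for 6 of the 10 genes, all with the knockout above (22.6% of tested genes), and for none with the knockout below (18.9%). The median was 0.72 over the 10 genes, 0.90 without Usp29 and 0.02 over all tested genes. With A and B averaged, 6 genes were higher and 0 lower, and the calls of Zim1, Usp29 and Snrpn were lost. The estimated correlation gave the same counts and lost the same 3 calls (limma adjusted p = 0.213, 0.0911 and 0.0703).

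In Dicer/Dnmt1 KO against Dnmt1 KO, 2 genes were higher and 4 lower, or 2 and 3 of 9 without Usp29. Among all tested genes 16.9% were higher and 19.4% were lower. Each Dicer/Dnmt1 KO library lay above each Dnmt1 KO library for 2 genes (20.8% of tested genes) and below for 5, or 4 without Usp29 (22.3%). The median was -0.30, or -0.27 without Usp29, against -0.01 over all tested genes. With A and B averaged, Usp29 and Mest were the 2 genes still called, both lower. Without Usp29, which was tested through its level in Dnmt1 KO, Mest alone was still called. With the estimated correlation 1 was higher (Plagl1) and 3 lower (Mest, Snrpn and Usp29). The calls of Peg3 (limma adjusted p = 0.121) and Ndn (limma adjusted p = 0.298) were lost there. Leaving out Dnmt1 KO 1A and 1B also lowered the number called from 6 to 2, again Usp29 and Mest. Both knockout groups were compared with the same WT libraries, so the first pair of comparisons is not independent.

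**Figure D2:**
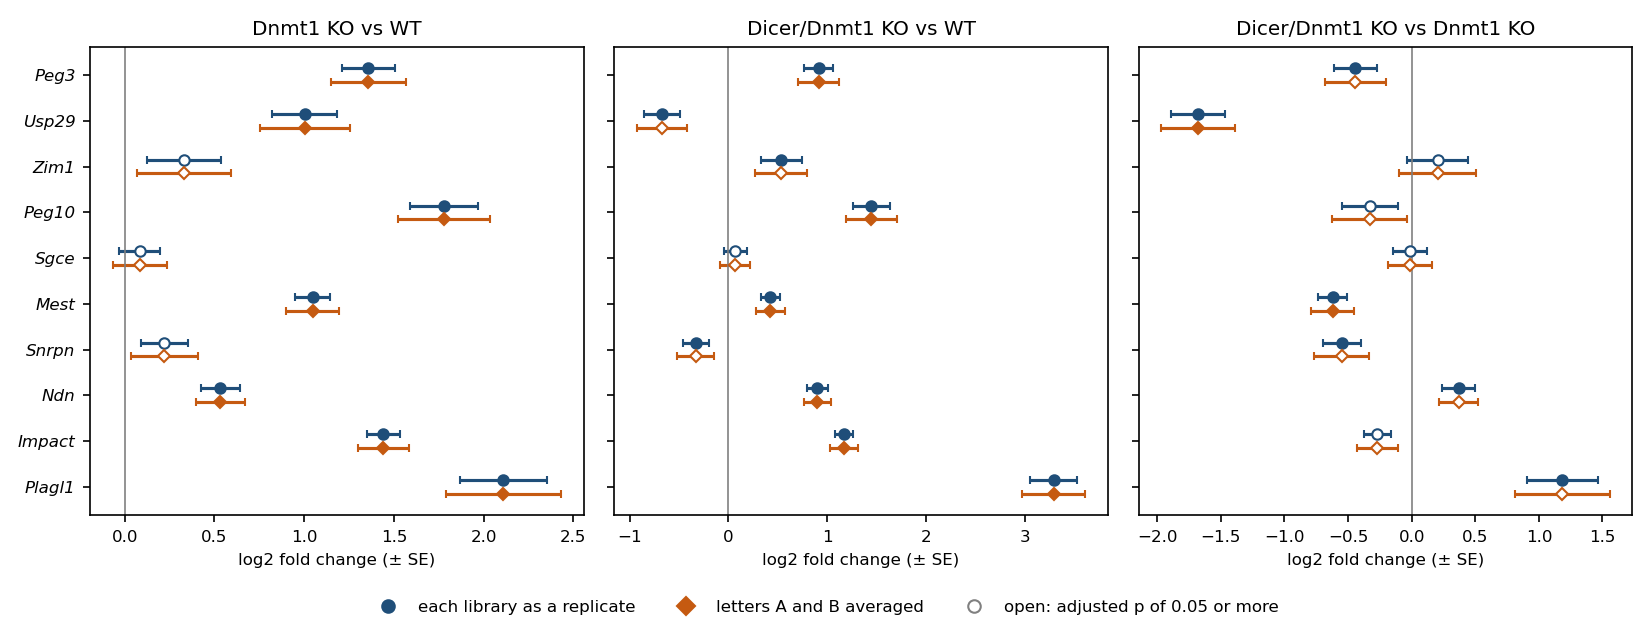
Log2 fold change of each imprinted gene in the 3 comparisons, with bars of 1 SE, for libraries taken singly (circles) and for A and B averaged (diamonds); filled symbols mark a limma adjusted p under 0.05. Plagl1 has the largest increase in both knockouts against WT (2.11 and 3.30), and Sgce lies at 0.08, 0.07 and -0.015 in the 3 panels.

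Peg3 encodes a zinc finger transcription factor and names the locus. Its WT libraries ranged from 7.17 to 8.20 log2 RPM, with a median of 7.66. The Dnmt1 KO libraries 1A, 1B, 2A and 2B had 8.81, 8.95, 9.25 and 9.07, and the Dicer/Dnmt1 KO libraries 8.70, 8.63, 8.50 and 8.47. The 3 groups did not overlap. Peg3 was 2.56-fold higher in Dnmt1 KO than in WT (log2 1.36 ± 0.15, SE; limma adjusted p = 1.28e-06) and 1.88-fold higher in Dicer/Dnmt1 KO (0.91 ± 0.15; limma adjusted p = 4.16e-05). The step between the knockouts, -0.44 ± 0.17, was near the threshold (limma adjusted p = 0.0474). Its adjusted p ranged from 9.48e-06 to 0.335 over 39 alternatives, of which 15 were under 0.05. Leaving out any of 11 single libraries raised it to 0.05 or above, the highest being 0.129 without Dnmt1 KO 2A.

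Usp29 encodes a deubiquitinating enzyme and is transcribed from the other side of the Peg3 promoter. It was rare, with 22 to 42 reads per WT library, 46 to 68 per Dnmt1 KO library and 13 to 24 per Dicer/Dnmt1 KO library. On the log2 RPM scale WT ranged from -0.77 to -0.13 with a median of -0.34. Dnmt1 KO had 0.82, 0.71, 0.43 and 0.48, all above WT. Dicer/Dnmt1 KO had -1.04, -1.29, -0.67 and -1.27, with 2A inside the WT range. It was 2.00-fold higher in Dnmt1 KO than in WT (log2 1.00 ± 0.18; limma adjusted p = 2.72e-04), which is a description only, because Usp29 was tested through its level in Dnmt1 KO. Dicer/Dnmt1 KO had less of it than WT (-0.68 ± 0.18; limma adjusted p = 0.00368) and 3.20-fold lower than in Dnmt1 KO (-1.68 ± 0.21; limma adjusted p = 1.32e-05). That the gene was tested through Dnmt1 KO bears on the last of these too. The sizes depended on scale. With a pseudocount of 1 RPM the 3 values were 0.52, -0.25 and -0.77, and with quantile normalization they were 0.72, -1.46 and -2.18. The difference from WT in Dicer/Dnmt1 KO was not called with A and B averaged (limma adjusted p = 0.0559) or without Dicer/Dnmt1 KO 1A and 1B (limma adjusted p = 0.0550). Since the row holds a single distant exon, these values describe that exon and not the start of the transcript.

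Zim1, another zinc finger gene, is the maternally expressed member and had 24 to 59 reads per library. WT ranged from -0.70 (3B) to 0.45 (1A) with a median of 0.09 log2 RPM. Dnmt1 KO had -0.04, 0.35, 0.31 and 0.45, and Dicer/Dnmt1 KO had 0.22, 0.59, 0.63 and 0.45. All groups overlapped. The difference from WT was 0.33 ± 0.21 in Dnmt1 KO (limma adjusted p = 0.214), with 0.026 against WT numbers 1 and 2 and 0.64 against WT numbers 3 and 4 (limma adjusted p = 0.0201). For Dicer/Dnmt1 KO it was 0.54 ± 0.21 (limma adjusted p = 0.0322), a call that 18 of 37 alternatives kept, with 0.23 against WT numbers 1 and 2 and 0.84 against WT numbers 3 and 4. It was lost on leaving out WT 3B, WT 4A, WT 4B or Dicer/Dnmt1 KO 1B, 2A or 2B (limma adjusted p = 0.0537 to 0.0866), without WT 4A and 4B together (limma adjusted p = 0.0942), and under both rescalings of the libraries (0.47 with median centring, 0.23 with quantile normalization).

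Peg10, a gene derived from a retrotransposon and needed in the placenta, was the most abundant member per exon length. WT ranged from 6.85 to 8.26 log2 RPM with a median of 7.72, Dnmt1 KO had 9.13, 9.28, 9.61 and 9.52, and Dicer/Dnmt1 KO had 9.13, 9.06, 8.99 and 9.04. All knockout libraries lay above WT, while both knockouts met near 9.13. Peg10 was 3.43-fold higher in Dnmt1 KO (log2 1.78 ± 0.19; limma adjusted p = 1.23e-06) and 2.73-fold higher in Dicer/Dnmt1 KO (1.45 ± 0.19; limma adjusted p = 5.30e-06) than in WT. The difference between the knockouts was -0.33 ± 0.22 (limma adjusted p = 0.254), which became a call in 5 of 39 alternatives.

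Sgce, which encodes epsilon-sarcoglycan of the muscle membrane complex, starts beside Peg10 on the opposite strand. WT ranged from 2.10 to 2.57 log2 RPM with a median of 2.41. Dnmt1 KO had 2.76, 2.52, 2.11 and 2.50, and Dicer/Dnmt1 KO had 2.22, 2.49, 2.56 and 2.56. The groups overlapped throughout. Differences from WT were 0.08 ± 0.12 in Dnmt1 KO (limma adjusted p = 0.593) and 0.07 ± 0.12 in Dicer/Dnmt1 KO (limma adjusted p = 0.624). The sign of all 3 Sgce comparisons turned when libraries were left out, and that in Dicer/Dnmt1 KO against WT also with quantile normalization (-0.03), so no direction can be given.

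Mest encodes a protein with an alpha/beta hydrolase fold. WT ranged from 4.32 to 4.87 log2 RPM with a median of 4.51, Dnmt1 KO had 5.48, 5.68, 5.68 and 5.57, and Dicer/Dnmt1 KO had 5.09, 4.95, 4.94 and 4.93. The 3 groups were separate, with Dicer/Dnmt1 KO in the middle. Mest was 2.07-fold higher in Dnmt1 KO (log2 1.05 ± 0.10; limma adjusted p = 2.73e-07) and 1.34-fold higher in Dicer/Dnmt1 KO (0.43 ± 0.10; limma adjusted p = 0.00128) than in WT. Between the knockouts it was lower in Dicer/Dnmt1 KO by -0.62 ± 0.11 (limma adjusted p = 4.66e-04), and by the same amount with A and B averaged (limma adjusted p = 0.0479).

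Snrpn encodes SmN, a core protein of spliceosomal particles, and Ndn encodes necdin, a MAGE family protein. They belong to the same imprinted domain, and a difference between their responses was not tested. Snrpn in WT ranged from 5.50 to 6.27 log2 RPM with a median of 5.74. Dnmt1 KO had 5.99, 6.01, 6.07 and 5.95, within the WT range, and Dicer/Dnmt1 KO had 5.55, 5.61, 5.38 and 5.27. The difference of Dnmt1 KO from WT was 0.22 ± 0.13 (limma adjusted p = 0.186), and without WT 1A it was called (0.29; limma adjusted p = 0.0412). Snrpn was lower in Dicer/Dnmt1 KO than in WT (-0.33 ± 0.13; limma adjusted p = 0.0348), which was lost without WT 1B, 3A or 3B or without Dicer/Dnmt1 KO 2A or 2B (limma adjusted p = 0.0524 to 0.118). It was lower than in Dnmt1 KO by -0.55 ± 0.15 (limma adjusted p = 0.00847), with separate groups, and this call was lost with A and B averaged (limma adjusted p = 0.132). It was lost too without Dnmt1 KO 1A and 1B (limma adjusted p = 0.0530) and without Dicer/Dnmt1 KO 2A and 2B (limma adjusted p = 0.102).

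Ndn ranged from 1.99 to 2.41 log2 RPM in WT with a median of 2.25. Dnmt1 KO had 2.75, 2.95, 2.89 and 2.52, and Dicer/Dnmt1 KO had 3.37, 2.99, 3.26 and 2.96. Both knockouts lay above WT, and each Dicer/Dnmt1 KO library lay above each Dnmt1 KO library. Ndn was 1.45-fold higher in Dnmt1 KO (log2 0.53 ± 0.11; limma adjusted p = 8.65e-04) and 1.87-fold higher in Dicer/Dnmt1 KO (0.90 ± 0.11; limma adjusted p = 2.25e-06) than in WT. The call in Dnmt1 KO was lost with the estimated correlation (limma adjusted p = 0.0635) and with letter B alone (limma adjusted p = 0.102). The further difference between the knockouts was 0.37 ± 0.13 (limma adjusted p = 0.0307) and was not called with A and B averaged (limma adjusted p = 0.159). It was not called without Dnmt1 KO 1A or 2B or without Dicer/Dnmt1 KO 1A or 2A (limma adjusted p = 0.0668 to 0.109).

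Impact, an inhibitor of the stress kinase GCN2, had the smallest adjusted p of the 10 genes in Dnmt1 KO. WT ranged from 5.07 to 5.55 log2 RPM with a median of 5.44, Dnmt1 KO had 6.85, 6.85, 6.88 and 6.77, and Dicer/Dnmt1 KO had 6.44, 6.37, 6.73 and 6.73. The Dicer/Dnmt1 KO libraries lay between the other groups without overlap. Impact was 2.71-fold higher in Dnmt1 KO (log2 1.44 ± 0.09; limma adjusted p = 2.86e-09) and 2.25-fold higher in Dicer/Dnmt1 KO (1.17 ± 0.09; limma adjusted p = 1.37e-08) than in WT. Between the knockouts the difference was -0.27 ± 0.11 (limma adjusted p = 0.0580). It was called in 12 of 39 alternatives, among them without WT 1A (limma adjusted p = 0.0266), without Dicer/Dnmt1 KO 2A (limma adjusted p = 0.0394) or 2B (limma adjusted p = 0.0417), and without WT 4A and 4B (limma adjusted p = 0.0392).

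Plagl1, also known as Zac1, encodes a zinc finger transcription factor that restrains growth. WT ranged from 1.36 to 2.92 log2 RPM with a median of 2.11. Dnmt1 KO had 3.81, 4.10, 4.54 and 4.33, and Dicer/Dnmt1 KO had 5.43, 5.54, 5.24 and 5.31. The 3 groups were separate, with Dicer/Dnmt1 KO highest. Plagl1 was 4.32-fold higher in Dnmt1 KO (log2 2.11 ± 0.24; limma adjusted p = 2.47e-06) and 9.82-fold higher in Dicer/Dnmt1 KO (3.30 ± 0.24; limma adjusted p = 5.17e-09) than in WT. Dicer/Dnmt1 KO exceeded Dnmt1 KO by 1.18 ± 0.28 (limma adjusted p = 0.00317), which was not called with A and B averaged (limma adjusted p = 0.0731) or without Dnmt1 KO 1A and 1B (0.95; limma adjusted p = 0.0624). The size of the change depended on the WT libraries. Against WT numbers 1 and 2 the increase in Dnmt1 KO was 1.62, and against WT numbers 3 and 4 it was 2.60.

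WT libraries of different numbers differed for several members. WT 1A had the highest Peg3, Peg10, Plagl1, Snrpn and Zim1 and the lowest Impact among WT libraries, and WT 4B had the lowest Peg3, Peg10, Mest and Plagl1. The SD over the 8 WT libraries was 0.57 for Plagl1, 0.46 for Peg10 and 0.33 for Peg3, against a median SD of 0.23 over all tested genes. Of tested genes, 94.6% had a smaller SD than Plagl1 and 89.3% a smaller SD than Peg10. Peg10 in Dnmt1 KO was 1.42 above WT numbers 1 and 2 and 2.13 above WT numbers 3 and 4. The Peg3, Peg10, Mest, Ndn, Impact and Plagl1 calls of both knockouts against WT passed with either set of WT libraries. Zim1 and Snrpn in Dnmt1 KO were called against WT numbers 3 and 4 (0.64 and 0.28; limma adjusted p = 0.0201 and 0.0234) and not against WT numbers 1 and 2.

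Neighbouring genes were then compared within each library, where library scaling cancels. There were 9 such results, tested by a two-sided exact permutation test over libraries with BH adjustment over the 9. With 4 against 8 libraries the smallest p is 0.00202, and with 4 against 4 it is 0.0286. Over A and B averages the test cannot pass 0.05.

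The Peg3 minus Usp29 difference in log2 RPM was 8.06 ± 0.30 (SD, n = 8) in WT, 8.41 ± 0.37 (n = 4) in Dnmt1 KO and 9.65 ± 0.32 (n = 4) in Dicer/Dnmt1 KO. The WT and Dnmt1 KO values overlapped, and their difference of 0.35 was not called (exact permutation test, adjusted p = 0.116). The Dicer/Dnmt1 KO values, 9.17 to 9.92, lay above all others. They exceeded WT by 1.59 (exact permutation test, adjusted p = 0.00455) and Dnmt1 KO by 1.24 (exact permutation test, adjusted p = 0.0429). Since Usp29 was tested through its level in Dnmt1 KO, the pair differences that involve Dnmt1 KO are a description only. The difference between the knockouts was lost with a pseudocount of 1 RPM (0.33; exact permutation test, adjusted p = 0.161), on a scale that compresses the low Usp29 values. On that scale the difference between Dnmt1 KO and WT was 0.83 (exact permutation test, adjusted p = 0.00606). Leaving out WT 1A and 1B (0.50) or Dnmt1 KO 1A and 1B (0.65) also made the difference of Dnmt1 KO from WT a call.

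The Sgce minus Peg10 difference was -5.22 ± 0.54 (SD, n = 8) in WT, -6.91 ± 0.48 (n = 4) in Dnmt1 KO and -6.60 ± 0.21 (n = 4) in Dicer/Dnmt1 KO. No knockout library overlapped WT. The decreases against WT were -1.69 and -1.38 (exact permutation test, adjusted p = 0.00455 for each), so these genes on either side of 101 bp changed unequally. The knockouts differed by 0.31 (exact permutation test, adjusted p = 0.286), with overlapping values, and the sign turned without Dnmt1 KO 2A and 2B (-0.04).

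The Zim1 minus Peg3 difference was -7.73 ± 0.31 (SD, n = 8) in WT, -8.75 ± 0.17 (n = 4) in Dnmt1 KO and -8.10 ± 0.26 (n = 4) in Dicer/Dnmt1 KO. Dnmt1 KO lay below all other libraries. The maternally expressed gene was therefore lower relative to its paternally expressed neighbour in Dnmt1 KO than in WT by -1.03 (exact permutation test, adjusted p = 0.00455). For Dicer/Dnmt1 KO against WT the value was -0.38 (exact permutation test, adjusted p = 0.0883). It was called without WT 3B (-0.47; exact permutation test, adjusted p = 0.0109) and with a pseudocount of 1 RPM (-0.63; exact permutation test, adjusted p = 0.00364). The knockouts differed by 0.65 (exact permutation test, adjusted p = 0.0429). This call, and that of Peg3 minus Usp29 between the knockouts, was lost on leaving out any single Dnmt1 KO library (exact permutation test, adjusted p from 0.0514 to 0.0857).

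**Figure D3:**
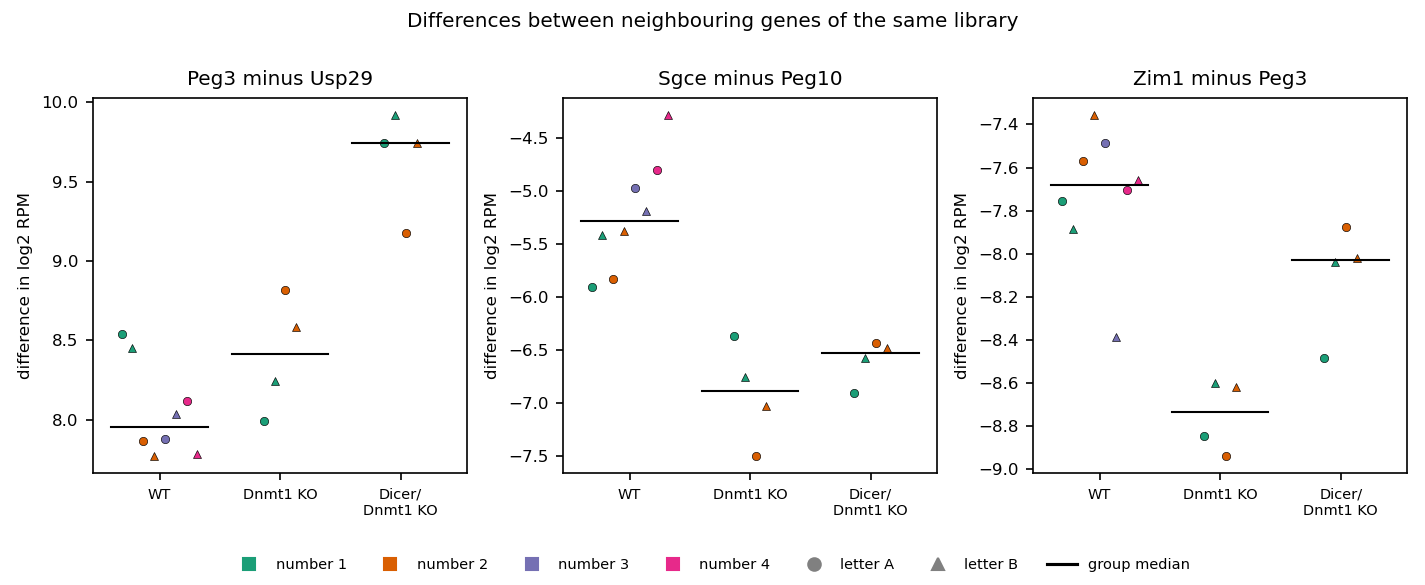
Difference in log2 RPM between neighbouring genes in each library, by group, with point colour for the number, shape for the letter and a line at the group median. Peg3 minus Usp29 is highest in Dicer/Dnmt1 KO (9.17 to 9.92), Sgce minus Peg10 is lower in both knockouts than in WT, and Zim1 minus Peg3 is lowest in Dnmt1 KO.

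Genes beside the members were read from lists of known neighbours, other paternally expressed genes and proteins that keep imprints. Of 23 neighbours 16 were in the table and 10 were tested. In Dnmt1 KO against WT 4 were higher and 1 lower (23.5% and 17.5% of all tested genes), with a median of 0.07. They included Pon2, a paraoxonase near Peg10 (0.90), Peg12 of the Ndn domain (0.87) and Copg2, whose end lies beside that of Mest on the opposite strand (-0.75). In Dicer/Dnmt1 KO against WT 5 were higher and 1 lower (31.9% and 30.1% of all tested genes), with a median of 0.38. Peg12 was at 0.85, Tsga14 at 0.70 and Pon2 at 0.67, and Copg2, named after its value was seen, at -0.54. Between the knockouts 2 were higher, Ppp1r9a (0.56) and Casd1 (0.45), both beside Sgce and Peg10, and 0 were lower, also at an unadjusted p under 0.05 in limma. Of all tested genes 16.9% were higher there, near the share of these neighbours, and 19.4% were lower. Whether the counting used strand is not stated, so reads of Copg2 and Mest cannot be told apart where they overlap. Snurf shares a transcript with Snrpn, so reads of that pair cannot be told apart either.

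Of 10 other paternally expressed genes 8 were in the table and 7 were tested. In Dnmt1 KO 3 were higher than in WT, namely Nespas (0.58), Zrsr1 (0.58) and Slc38a4 (0.30), and 0 were lower in limma, adjusted or not. Of all tested genes 23.5% were higher and 17.5% lower. Airn, an antisense RNA within Igf2r, was not called (1.20; limma adjusted p = 0.0543), and 1 of the 7 estimates was below 0. Nap1l5, not tested, had 3 to 11 reads per WT library, 24 to 41 per Dnmt1 KO library and 15 to 18 per Dicer/Dnmt1 KO library. In Dicer/Dnmt1 KO 4 of the 7 were higher and 2 lower than in WT (31.9% and 30.1% of all tested genes). The largest changes were in Airn (1.94), Nnat, a neuronal membrane proteolipid (0.78), and Zrsr1 (0.76). Airn, among the 4 higher, passed the filter through its level in Dicer/Dnmt1 KO, with each WT library below 1 RPM. The call of Airn is therefore a description only. The lower genes, named after their values were seen, were Inpp5f (-0.72) and Mcts2 (-0.37). The same 2 genes were lower in Dicer/Dnmt1 KO than in Dnmt1 KO (-0.69 and -0.40), and none of the 7 was higher in limma, adjusted or not. Of all tested genes 19.4% were lower and 16.9% higher between the knockouts. The medians were 0.36, 0.60 and 0.02 in the 3 comparisons, in the order given above for the members.

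All 8 genes for proteins that protect imprints were tested. In Dnmt1 KO the corepressor gene Trim28 (0.45) and Uhrf1, whose product guides DNMT1 to DNA (0.41), were higher than in WT. Zfp57 (-0.35) was lower, as was Dppa3 (-0.29), named after its value was seen. Zfp57 (-0.55) and Zfp445 (-0.38) were lower in Dicer/Dnmt1 KO than in WT, and 0 of the 8 were higher in limma, adjusted or not. Between the knockouts Trim28 (-0.52), Uhrf1 (-0.36) and Zfp445 (-0.33) were lower in Dicer/Dnmt1 KO. The medians over the 8 genes were 0.02, -0.09 and -0.22. In the same order, 2, 0 and 0 of the 8 were higher and 2, 2 and 3 were lower. Of all tested genes 23.5%, 31.9% and 16.9% were higher and 17.5%, 30.1% and 19.4% were lower.

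Several markers of other cells differed between the groups. Among all tested genes 23.5% were higher and 17.5% lower in Dnmt1 KO than in WT, and 31.9% and 30.1% in Dicer/Dnmt1 KO. Between the knockouts these shares were 16.9% and 19.4%. The summed RPM of 15 feeder fibroblast markers was 81.3 to 132 in WT, 190 to 207 in Dnmt1 KO and 175 to 289 in Dicer/Dnmt1 KO. Against WT, 8 of 11 tested feeder markers were higher in Dnmt1 KO and 10 of 11 in Dicer/Dnmt1 KO. Between the knockouts limma called 0 of 11, with 2 at an unadjusted p under 0.05. Among the feeder markers Col1a1 (1.40 and 1.72), Timp3 (1.27 and 1.29), Tnc (1.04 and 1.40), Col1a2 (0.96 and 1.19), Fbln2 (0.83 and 1.18) and Prrx1 (0.82 and 1.03) were higher than WT in both knockouts on the log2 scale, while Lum and Fap had at most 7 reads in any library and Dcn at most 19. The 7 primitive endoderm markers summed to 12.1 to 21.6 RPM in WT, 41.6 to 56.0 in Dnmt1 KO and 20.8 to 28.4 in Dicer/Dnmt1 KO, with 7 and 4 of 7 higher than in WT. Between the knockouts 4 of these 7 were lower in Dicer/Dnmt1 KO. Foxa2, called higher than WT in both knockouts, passed the filter only through knockout libraries, so those calls are a description only. Of 3 tested trophoblast markers 2 (Cdx2 and Hand1) and 1 (Hand1) were higher than in WT. Both genes passed the filter only through knockout libraries, with each WT library below 1 RPM. These trophoblast calls are therefore a description only. Of 2 neural markers 1 was lower in Dnmt1 KO and 2 were higher in Dicer/Dnmt1 KO, both against WT and against Dnmt1 KO.

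The 10 ESC markers summed to 2094 to 3499 RPM in WT, 1878 to 2547 in Dnmt1 KO and 2001 to 2326 in Dicer/Dnmt1 KO, with 3 of 10 lower and 0 higher in each knockout against WT (limma, and 0 higher also without adjustment). Between the knockouts 3 were higher and 3 lower. The Y-linked gene Usp9y was without a read (0 reads) in each of the 8 WT libraries. Reads of this gene numbered 46 to 86 per Dnmt1 KO library and 17 to 41 per Dicer/Dnmt1 KO library, so the groups also differ in Y-linked RNA. Ddx3y, also Y-linked, had 0 to 24 reads per WT library, 212 to 334 per Dnmt1 KO library and 231 to 381 per Dicer/Dnmt1 KO library. Every comparison of a knockout with WT therefore carries this Y-linked difference, which cannot be told apart from the knockout. The part of these differences in the higher levels of Peg3, Usp29, Peg10, Mest, Ndn, Impact and Plagl1 was not tested. More RNA per cell and more cells of a type with these RNAs cannot be told apart in bulk libraries.

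**Figure D4:**
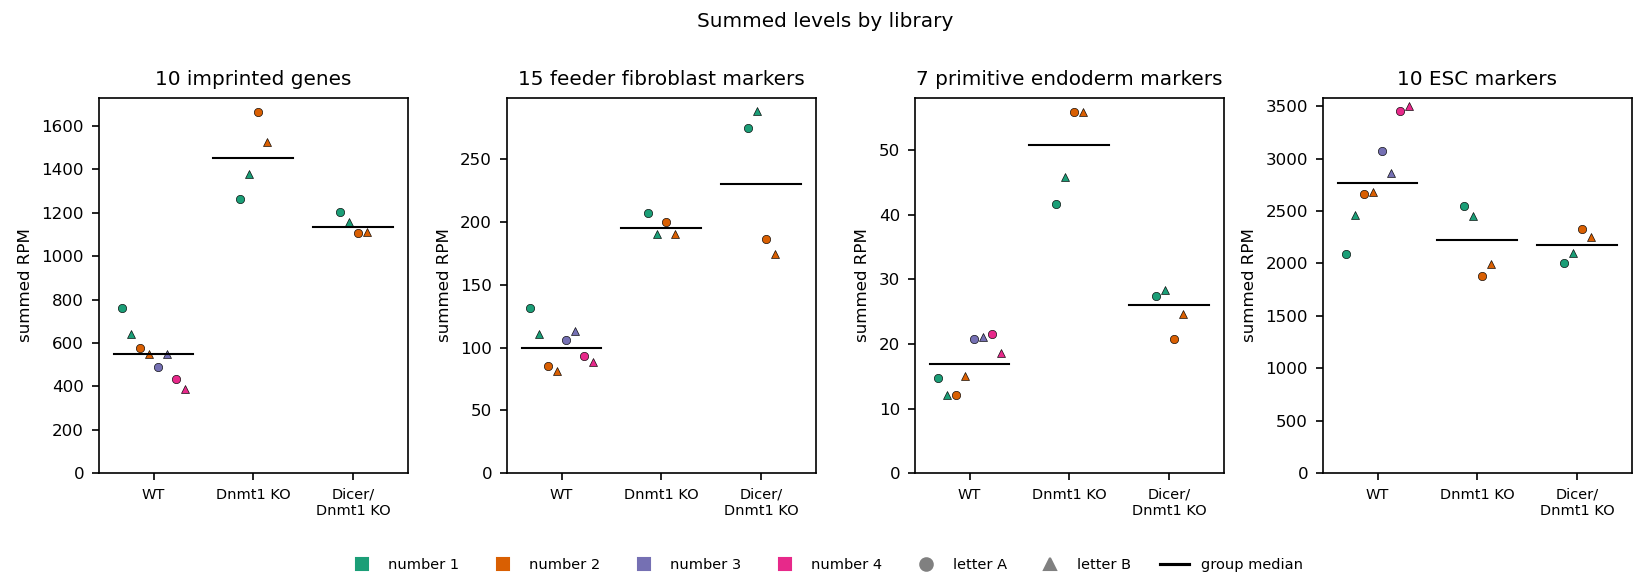
Summed RPM per library of the 10 imprinted genes, 15 feeder fibroblast markers, 7 primitive endoderm markers and 10 ESC markers, by group, with a line at the group median. The imprinted genes sum to 390 to 760 in WT, 1262 to 1667 in Dnmt1 KO and 1105 to 1204 in Dicer/Dnmt1 KO, and the feeder and primitive endoderm sums also differ between WT and Dnmt1 KO. Most of each imprinted gene sum is Peg10 and Peg3 (306 and 294 of 760 RPM in WT 1A).

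The genes most like each member were those with the highest Pearson r of log2 RPM over the 16 libraries. The libraries fall into 3 groups, which all genes share, and r is given as a description. Peg3 and Peg10 were each among the 2 closest genes of the other (r = 0.982), although they lie on different chromosomes, and Peg3 was second for Mest (r = 0.955). The other nearest gene was Ccnyl1 for Peg3 (r = 0.979), Fmn2 for Peg10 (r = 0.987) and Nab1 for Mest (r = 0.972). Plagl1 was closest to Itpr2 (r = 0.991) and Pdgfc (r = 0.988), and Impact to Rpia (r = 0.988) and Neto2 (r = 0.987). Ndn was closest to Smyd2 (r = 0.947) and Lxn (r = 0.946), Usp29 to Bop1 (r = 0.935) and Slc11a2 (r = 0.927), and Snrpn to Mcm2 (r = 0.929) and Rasd2 (r = 0.923). The lowest values were those of Zim1 with Papd4 (r = 0.894) and Pigu (r = 0.880) and of Sgce with Ankrd13d (r = 0.759) and Ptplad2 (r = 0.755).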

How the data were processed

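Ribosome-depleted total RNA was sequenced. Per the methods, the authors aligned reads to NCBIM37 with TopHat and removed alignments of mapping quality under 20. The submitters' processing notes name Trim Galore 0.3.5, TopHat2 2.0.11 and also GRCm38. The coordinates of the members equal those of the NCBIM37 annotation (GENCODE M1). The authors counted reads per gene in SeqMonk and deposited log2 RPM, with a gene without reads written as 0.9 read. A further 35 value columns belong to other samples and were not used. Totals were 31.5 to 52.5 M reads per library. At this depth 3 reads, the limit a count of 0 allows, are 0.0571 to 0.0954 RPM, which covers counting error only.

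The members and gene lists were chosen with earlier results of these data known. All genes above 1 RPM in at least 4 libraries were fitted with limma 3.58.1 (R 4.3.3) on the deposited log2 values, with 1 mean for each of the 3 groups, an intensity trend, no covariate and BH adjustment over 12892 genes. Fold changes and levels are on the log2 RPM scale. RPKM is RPM over the length of all annotated exons merged. Pair differences were tested by exact permutation (Python 3.11.15). For each list the named genes are up to 3 called genes with the largest change per comparison. For each member, the 2 tested genes of highest r were named, without predicted genes. Cell type markers were feeder fibroblast, ESC, primitive endoderm, trophoblast and neural lists. Alternatives changed the pseudocount, filter, scaling, replicate unit, block, WT libraries, variance trend and libraries included.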

Additional observations from a re-analysis of the deposited data

Results flagged for a closer look

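Of 39 groups of values examined (10 genes and 3 pair differences in 3 groups), 2 held a library far from the rest by Dixon's criterion, which chance alone exceeds in about 1 of 20 groups. Sgce in WT 2A, at 2.10 log2 RPM, lay below the nearest WT library at 2.35. Mest in Dicer/Dnmt1 KO 1A, at 5.09 log2 RPM, lay above the nearest library of its group at 4.95.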

How the results depend on the processing

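Values are given in the order Dnmt1 KO against WT, Dicer/Dnmt1 KO against WT and Dicer/Dnmt1 KO against Dnmt1 KO. The counts of 7, 9 and 6 members called became 7, 6 and 2 with A and B averaged, 6, 5 and 1 with letter A alone and 5, 6 and 1 with letter B alone, settings that hold fewer samples. The 1 member called in the third comparison with either letter was Usp29, which was tested through its level in Dnmt1 KO. Leaving out libraries gave 7 to 8, 7 to 9 and 2 to 7. For single members, 1008 of 1130 alternative values kept direction and side of the threshold, 91 lost a call, 21 gained one and 10, all of Sgce, turned sign. Sgce was -0.034 in the second comparison with quantile normalization and 0.014 in the third with letter B alone. Leaving out single libraries gave -0.014 to 0.20, 0.027 to 0.15, -0.14 to 0.081 for Sgce. Without both libraries of a number, Sgce was in the first comparison -0.085 without Dnmt1 KO 1A and 1B, and in the second comparison -0.033 without Dicer/Dnmt1 KO 2A and 2B, and in the third comparison 0.15 without Dnmt1 KO 1A and 1B, 0.086 without Dicer/Dnmt1 KO 1A and 1B. Peg3 minus Usp29 was 0.22 to 0.49, 1.50 to 1.75, 1.10 to 1.39 without single libraries. Without both libraries of a number, Peg3 minus Usp29 was in the first comparison 0.50 without WT 1A and 1B, 0.65 without Dnmt1 KO 1A and 1B, and in the second comparison 1.40 without Dicer/Dnmt1 KO 1A and 1B, 1.78 without Dicer/Dnmt1 KO 2A and 2B, and in the third comparison 0.94 without Dnmt1 KO 1A and 1B, 1.53 without Dnmt1 KO 2A and 2B, 1.05 without Dicer/Dnmt1 KO 1A and 1B, 1.42 without Dicer/Dnmt1 KO 2A and 2B. Sgce minus Peg10 was -1.88 to -1.50, -1.48 to -1.25, 0.12 to 0.50 without single libraries. Without both libraries of a number, Sgce minus Peg10 was in the first comparison -1.34 without Dnmt1 KO 2A and 2B, and in the second comparison -1.24 without Dicer/Dnmt1 KO 1A and 1B, -1.52 without Dicer/Dnmt1 KO 2A and 2B, and in the third comparison -0.038 without Dnmt1 KO 2A and 2B. Zim1 minus Peg3 was -1.12 to -0.96, -0.47 to -0.25, 0.57 to 0.77 without single libraries. Without both libraries of a number, Zim1 minus Peg3 was in the first comparison -0.999 without Dnmt1 KO 2A and 2B, and in the second comparison -0.45 without WT 3A and 3B, and in the third comparison 0.68 without Dnmt1 KO 1A and 1B, 0.62 without Dnmt1 KO 2A and 2B, 0.80 without Dicer/Dnmt1 KO 1A and 1B, 0.49 without Dicer/Dnmt1 KO 2A and 2B. With a pseudocount of 1 RPM, Peg3 minus Usp29 was 0.83 in the first comparison and 0.33 in the third, and Zim1 minus Peg3 was -0.63 in the second. With A and B averaged, letter A alone and letter B alone, the pair tests could not pass 0.05. Under these 3 settings, in this order, Peg3 minus Usp29 was 1.59, 1.36 and 1.82 in the second comparison and 1.24, 1.05 and 1.42 in the third. Sgce minus Peg10 was -1.69, -1.56 and -1.83 in the first and -1.38, -1.29 and -1.47 in the second. Zim1 minus Peg3 was -1.03, -1.26 and -0.79 in the first and 0.65, 0.71 and 0.58 in the third. With the number as a replicate block the counts were 7, 8 and 8. The labels do not say that a number marks a shared batch, and same-numbered deviations correlated at -0.018, 0.42 and -0.22 (in the same order), so the numbers were not taken to pair the samples. Among the knockout libraries alone, a block by number and a crossed block, both added after seeing the data, called 8 and 8 members. With the correlation between A and B of a number that limma estimated (0.67) the counts were 6, 6 and 4, so p-values over single libraries may be too small. Low read numbers limit Usp29 and Zim1.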
